A study of Mus musculus with 9 samples.

Results

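The cells described here come from the libraries taken as hypothalamus and carry RNA of the genes by which neurons make or load GABA and glutamate. They were chosen by measured values: a cell entered with at least 1 unique molecular identifier (UMI, the tag that lets PCR copies of 1 transcript count once) of Gad1, Gad2, Slc32a1 or Slc17a6, and with Gh under 30% of its UMIs. The rule found 501 cells among the 10113 of libraries 4, 5 and 6 and the 29571 of the whole series. Of these, 306 carried UMIs of Gad1, Gad2 or Slc32a1 and none of Slc17a6 (GABA-only), 193 carried Slc17a6 and none of the others (Slc17a6-only), and 2 carried both. Most had other genes of neurons as well. However, 61 of them were high in pituitary hormone RNA, with a median of 2 of 24 neuron genes against 9 in the other 440. The name neuron is therefore not used for all 501.

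The series profiled dissociated cells of brainstem, cortex and hypothalamus by single-cell RNA sequencing (10x Chromium), to ask how sleep need alters gene expression in each cell type. The mice were male C57BL/6 animals (C57BL/6 J in the study's methods) of 9 to 11 weeks. The 3 sleep groups were normal sleep (NS), 12 h of sleep deprivation begun at lights on (SD), and deprivation of equal length with recovery sleep after it (RS). The recovery is given as 24 h in 1 place of the labels and 12 h in another, and all brains were taken at lights off (ZT12). Each region and sleep group is 1 library made from tissue pooled from 3 mice, so no value below has a replicate, and the tissue had been dissociated with papain and passed over myelin removal beads. The labels do not tie the 9 library codes of the count table to samples. Libraries are therefore numbered in column order, libraries 4 to 6 are taken as hypothalamus by their place and not by a label, their sleep groups are unknown, and no sleep groups are compared.

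A neuron that signals with GABA makes it with the glutamate decarboxylases encoded by Gad1 and Gad2 and loads it into vesicles with the transporter encoded by Slc32a1 (VGAT). Most glutamate neurons of the hypothalamus load their vesicles with the transporter encoded by Slc17a6 (VGLUT2). On top of these fast transmitters, hypothalamic neurons release peptides and amines, such as vasopressin, oxytocin, somatostatin and histamine, that act on sleep, feeding, water balance and the pituitary.

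Across libraries 4, 5 and 6 the median cell held 869, 565 and 1055 UMIs, and the median cell that met the rule 902, 589.5 and 949. Pituitary hormone RNA filled much of these libraries: Gh, which encodes growth hormone, took 25.3%, 27.9% and 32.1% of all their UMIs, against at most 0.00755% in any other library. Microglia- and endothelial-marker cells of these libraries carried it too, as given below. Of the 501 cells, 17 had a barcode that also occurred in another library.

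The position of the cells was checked with genes that the rule did not use. Nkx2-1, a homeobox gene of the ventral hypothalamus, stood at 50.7, 47.2 and 21.2 CPM in libraries 4, 5 and 6, against 0 in each of the other 6. Foxb1, a forkhead gene known from the mammillary region, stood at 27.7, 110.1 and 42.4 CPM in libraries 4, 5 and 6, against 0 in each of the other 6. Six3, a homeobox gene of the anterior forebrain, stood at 194, 86.5 and 120.1 CPM in libraries 4, 5 and 6, against 0 to 20.7 CPM in the other 6. In these 3 genes every library from 4 to 6 lay above every other library, where cells were chosen by the same rule. Summed over the 20 genes of the hypothalamic position list, the level was 687, 763 and 749 CPM (UMIs per 1000000 UMIs of the cells summed) in libraries 4, 5 and 6 and 16.7 to 256 CPM elsewhere. All other cells of libraries 4, 5 and 6 stood at 309, 282 and 318 CPM, also above the cells of the rule elsewhere. The gap between libraries is thus in part shared by cells outside the rule. In the 501 cells the 10 telencephalic genes gave 471, 212 and 184 CPM, against 1696 to 2262 CPM in libraries 1 to 3. In libraries 7 to 9 they gave 167, 351 and 302 CPM, so this list does not set libraries 4 to 6 apart from those. Genes of the hindbrain, mostly Hox genes, gave 0 UMIs in all 501 cells, and up to 385 CPM in libraries 7 to 9. Of the 20 hypothalamic genes, 7 were at least 2-fold higher in each of libraries 4 to 6 than in every other library, beside 0.222% of all 15732 genes: Foxb1, Irs4, Six3, Nkx2-1, Six6, Magel2 and Fezf1.

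**Figure D1:**
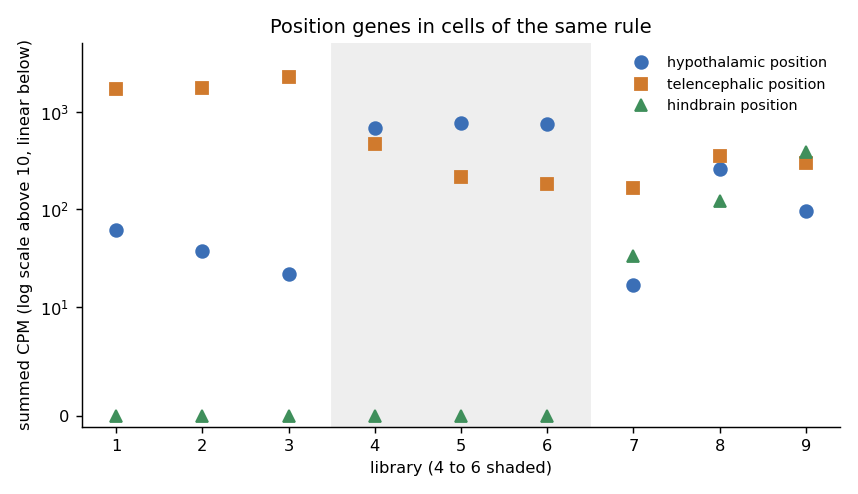
Summed level (CPM) of 3 lists of position genes in cells chosen by the same transmitter rule in each of the 9 libraries, each point being 1 library, with libraries 4 to 6 shaded. The hypothalamic list is at 687 to 763 CPM in libraries 4 to 6 and at most 256 CPM elsewhere, while hindbrain genes appear only in libraries 7 to 9.

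The transmitter genes themselves chose the cells and are given as a description. Gad2 had 296 UMIs in 209 of the 501 cells, Gad1 had 155 in 113, Slc32a1 had 86 in 70 and Slc17a6 had 255 in 195. Most cells entered on a single molecule, since 331 of them held exactly 1 UMI of the 4 genes and no cell held more than 7 of any 1 of them. Among GABA-only cells 141 showed Gad2 alone, 58 Gad1 alone and 31 Slc32a1 alone, 37 showed Gad1 with Gad2, and 8 showed all 3 genes. Slc17a7, which encodes the cortical vesicular glutamate transporter VGLUT1, had 0 UMIs in 501 cells. Taken as 3 cells of 501, this allows a share of up to 0.599% of cells with a UMI at this depth and sets no limit on cells that express it.

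The limit on Gh left out 47 cells that had a transmitter UMI, 29 with Slc17a6 and 18 with a GABA gene. The cells just inside the limit had Gh at 24.0% and 20.7% of their UMIs, and those just outside at 31.9% and 35.9%. In the cells kept, Gh took a median of 0.892% of UMIs, and its summed level of 14737 CPM lay below the 46754 CPM of 536 microglia- and endothelial-marker cells of the same libraries. The rule's limit on Gh lowers the first value and was not set on those 536 cells, so both are a description. Those 536 cells (median depth 547 UMIs, against 803 in the 501) are called reference cells below. They were chosen to hold at least 3 genes of 1 of these lists and at most 1 gene of each other brain list, the neuron list included. Cells that met the rule were left out of them. They serve as a background only for genes outside those lists. For other genes of neurons that background can be too low, since cells with more neuron genes were left out by the choice.

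The classes differed in size between libraries. There were 136 GABA-only and 60 Slc17a6-only cells from library 4, 100 and 86 from library 5, and 70 and 47 from library 6. GABA-only cells were thus 69.0% of the cells in library 4 (exact 95% interval 62.1 to 75.4), 53.8% in library 5 (interval 46.3 to 61.1) and 59.3% in library 6 (interval 49.9 to 68.3). The intervals of libraries 4 and 5 do not overlap, and that of library 6 overlaps both. As a share of all cells of their library the 501 made up 5.64%, 6.87% and 3.01%. All intervals cover counting error only, and what the libraries differ in (sleep group, dissection or depth) cannot be told apart. Both cells that carried a GABA gene with Slc17a6 held 1 UMI of each, at 602 and 1616 UMIs in all, with 11 and 16 of the 24 neuron genes detected.

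**Figure D2:**
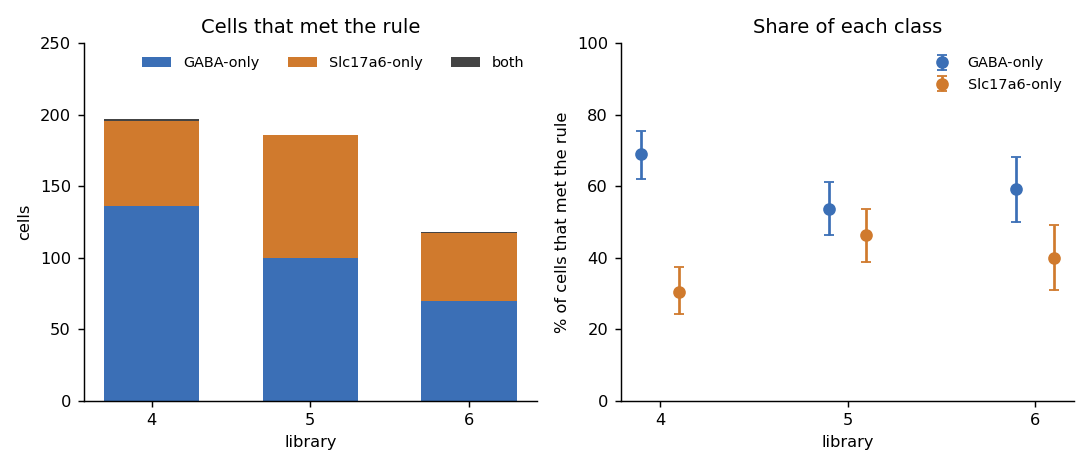
Left, number of cells that met the rule in libraries 4, 5 and 6, stacked by class; right, share of GABA-only and Slc17a6-only cells in each library with exact 95% binomial intervals. With all 501 cells GABA-only is the larger class in each library, from 53.8% in library 5 to 69.0% in library 4.

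Genes of neurons outside the rule were found in most of the cells. Snap25, a protein of the vesicle fusion machinery, was found in 49.5% (95% interval 45 to 54) of the 501 cells and in 13.2% of the other 9612 cells of the same libraries, at median depths of 803 and 875 UMIs. Snhg11, a long RNA of neurons, was found in 72.1% and 10.6%, and Ndrg4 in 41.7% and 3.41%. The summed level of the 24 neuron genes was 21792, 23666 and 18320.1 CPM in libraries 4, 5 and 6, against 6617, 5416 and 5586 CPM in all other cells of the same libraries. Of the sum in the 501 cells, Meg3 alone gave 8562, 8321 and 8094 CPM. At least 3 of the 24 genes were found in 444 of the 501 cells (88.6%) and in 29.5% of the other cells.

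Genes were counted as higher when their ratio of CPM plus 10 was at least 2 in all 3 libraries. By that rule 34.7% of the 3239 genes with at least 50 UMIs in the cells were higher than in the other cells, with a median log2 ratio of 1.00, so a list has to be read against that share. The minimum was set in the 501 cells themselves, which favours genes that are high there, so counts of higher genes in this comparison are a description and support nothing. Of the neuron genes 22 of 23 tested were higher, with a median log2 ratio of 2.94. Among the 12 genes with the largest ratios, leaving the rule's own genes and hormones out, were Sst, Ndrg4, Nrgn, Gnrh1, Nrsn2, Sncb, Nrxn3, Vsnl1, Eno2 and Grm5. Nrgn encodes a calmodulin-binding protein and Grm5 a receptor for glutamate. Gnrh1 was above the other cells by 2-fold in library 5 alone, and the others named in all 3 libraries.

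Markers of other brain cells were present at lower sums than the neuron list. The microglia list summed to 318, 315 and 162 CPM in the 3 libraries and the endothelial list to 581, 181 and 226 CPM, against 951, 1251 and 169 CPM and 723, 1391 and 241 CPM in all other cells. The astrocyte or tanycyte list summed to 719.6, 1479 and 537 CPM, against 1068, 2075 and 559.5 CPM in the other cells, and so all 3 lists were nearly level with the other cells in library 6. The oligodendrocyte lineage list was higher in the 501 cells, at 64.6, 142 and 106 CPM against 52, 96.3 and 39.3 CPM. At least 3 genes of the list were found in 7 cells for microglia, 9 for endothelium, 26 for astrocytes or tanycytes, 5 for mural cells, 4 for ependyma, 3 for fibroblasts and 0 for the oligodendrocyte lineage. Astrocyte genes were the most widespread, with at least 1 of the 10 in 42.1% of the cells, led by Aldoc at 268, 425 and 261 CPM.

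**Figure D3:**
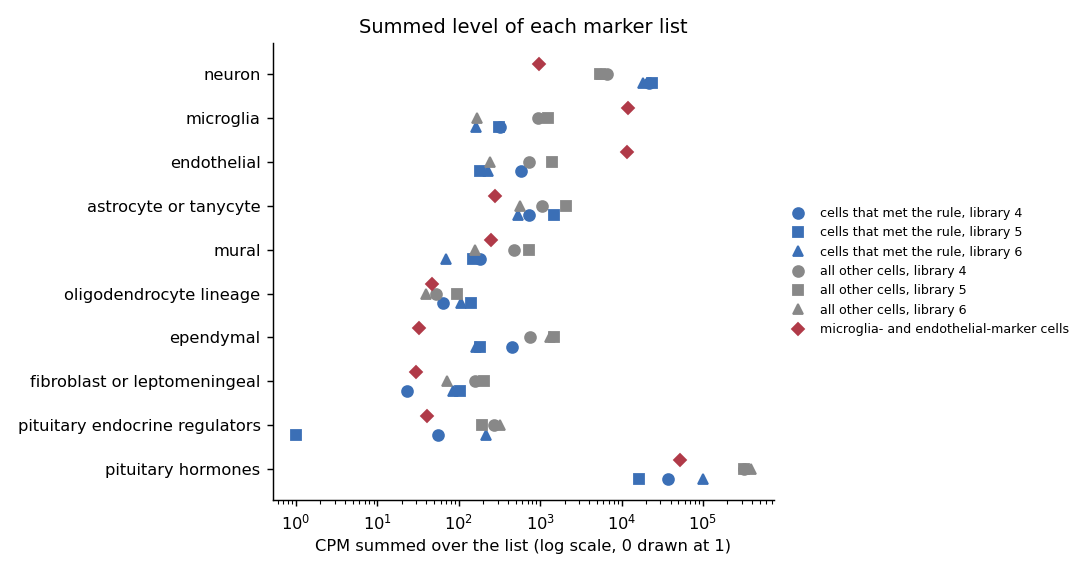
Summed CPM (log scale) of each marker list in the cells that met the rule (blue), in all other cells of the same library (grey) and in the pooled microglia- and endothelial-marker cells (red), with 1 symbol shape per library. The neuron list is highest in the cells that met the rule in each library, and the hormone list is highest in the other cells. The red values of the brain lists were fixed by how those cells were chosen.

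Some of the cells were high in pituitary hormone RNA, and these had fewer neuron genes at the median. The 6 pituitary hormones other than Gh took under 1% of the UMIs in 430 of the 501 cells, 1% to 5% in 10, and at least 5% in 61, with a maximum of 51.8%. These 61 cells, called hormone-high here, comprised 40 GABA-only and 21 Slc17a6-only cells, and numbered 25 of 197 in library 4, 5 of 186 in library 5 and 31 of 118 in library 6. Library 6 thus had the largest share, 26.3% of its cells. In them 39 cells held Gad2, 1 held Slc32a1 and 0 held Gad1, whereas of the other 440 cells 170 held Gad2 and 113 held Gad1. They showed a median of 2 of the 24 neuron genes, the median also of all cells outside the rule, against 9 in the others. Median depths were 932 and 781.5 UMIs. Snhg11 was found in 9.84% against 80.7% and Snap25 in 26.2% against 52.7%. Meg3, also on the neuron list, did not set them apart, at 96.7% against 95.5%. Pou1f1, the transcription factor of several pituitary cell types, stood at 284 CPM in the hormone-high cells and at 2.39 CPM in the rest.

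By hormone, 31 of the 501 cells had at least 5% of their UMIs from Prl (prolactin), of which 27 were GABA-only, and 23 from Pomc (the precursor of ACTH and melanocortins), of which 11 were GABA-only. Among all 857 cells of the libraries with Prl at that level, 27 held Gad2 and 0 held Gad1. The level of Pomc, a gene also of melanocortin neurons in the arcuate nucleus, was 88747 CPM in the hormone-high cells, 1305 CPM in the other 440 and 872 CPM in the reference cells. Without the hormone-high cells GABA-only cells were 71.5% of 172 cells in library 4 (exact 95% interval 64.1 to 78.1), 54.1% of 181 in library 5 (interval 46.6 to 61.6) and 51.7% of 87 in library 6 (interval 40.8 to 62.6). Library 6 thus moved from between the other libraries to the lowest share, with an interval that contains 50%. The source of the hormone RNA in them was not tested.

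GABA-only and Slc17a6-only cells were then compared within each library. Of 3227 genes with at least 30 UMIs over both classes, 16 (0.496%) were at least 2-fold higher in GABA-only cells in all 3 libraries and 10 (0.31%) in Slc17a6-only cells. The median log2 ratio over all genes was -0.01. The genes higher in GABA-only cells included peptides and the machinery of amine signalling, and the gene with the largest ratio the other way was a peptide gene. Without the hormone-high cells, 14 of the 16 and 5 of the 10 passed again. With at least 3 neuron genes per cell, 13 of the 16 and 6 of the 10 did. Of the 11 neuropeptide genes with enough UMIs, 2 were higher in GABA-only cells and 1 in Slc17a6-only cells, and of the 3 genes of other transmitters 2 were higher in GABA-only cells.

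Sst, which encodes somatostatin, an inhibitory peptide, had 598, 625 and 811 CPM in the GABA-only cells of libraries 4, 5 and 6 and 12.1, 17.1 and 105 CPM in the Slc17a6-only cells. Gal encodes galanin, a peptide of sleep-promoting neurons of the preoptic area among others, and had 127, 378 and 157 CPM against 12.1, 0 and 52.3 CPM. For neither gene do the libraries of the classes overlap, and the pooled log2 ratios were 3.75 and 2.77. Over the 3 libraries Sst stood at 666 CPM (95% interval 575 to 768) in GABA-only and 40.4 CPM (95% interval 17.4 to 79.6) in Slc17a6-only cells. These intervals do not meet, but they cover counting error only and not the spread between cells. Sst UMIs lay in few cells, 26 GABA-only and 5 Slc17a6-only, and the richest cell gave 66 of the 198 UMIs. Ecel1, which encodes an endopeptidase-like membrane protein of neurons, had 15, 16 and 14 UMIs in GABA-only and 0, 0 and 2 in Slc17a6-only cells (log2 ratio 3.06).

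The monoamine transporter gene Slc18a2 and the histamine gene Hdc, which lay partly in the same cells, were both higher in GABA-only cells. Slc18a2, the vesicular monoamine transporter VMAT2, had 134, 116 and 121 CPM in GABA-only cells of the 3 libraries and 12.1, 0 and 17.4 CPM in Slc17a6-only cells (log2 ratio 2.76). Hdc, the enzyme that makes histamine, had 172, 218 and 303 CPM and 60.7, 0 and 0 CPM (log2 ratio 2.71). Hdc UMIs lay in 12 cells, 4 in each library: 11 were GABA-only, 10 held Gad1, 2 held Gad2 and 0 held Slc32a1, and 8 held Slc18a2. In the 489 cells without Hdc, 10 held Slc18a2 and 103 held Gad1. The Hdc cells were deeper, with a median of 1650.5 UMIs against 787. In the reference cells 1 of 536 had an Hdc UMI and 3 had a Slc18a2 UMI. Histamine neurons are known from the tuberomammillary nucleus, where they also make GABA. Since Gad1 and Gad2 helped to choose the cells, their counts among Hdc cells are a description. The 501 cells held 68 of the 518 Hdc UMIs of the libraries, so most Hdc RNA lay in cells that the rule did not take.

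Other genes higher in GABA-only cells were Nrxn3, a presynaptic adhesion protein, with 890.4 CPM against 157 and library log2 ratios of 2.35, 2.62 and 2.34. Sncg (a synuclein) had a pooled log2 ratio of 2.38, Slc7a8 (an amino acid transporter) 2.10, Gng4 (a G protein subunit) 1.74 and Cplx1 (complexin 1, which clamps vesicle fusion) 1.71. Isl1, a LIM homeobox gene of ventral forebrain neurons, had 74.7, 131 and 133 CPM against 12.1, 34.3 and 52.3 CPM. Ncbp2, Smg1, Smarca1 and Sdhc passed with log2 ratios between 1.15 and 1.28. Without the hormone-high cells Smarca1 missed 2-fold in at least 1 library and Ncbp2 fell under the minimum of 30 UMIs.

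In the other direction Adcyap1, which encodes the peptide PACAP, had 243, 154 and 209 CPM in Slc17a6-only cells and 0, 14.5 and 0 CPM in GABA-only cells (log2 ratio -4.01). Its 42 UMIs lay in 35 cells, 34 of them Slc17a6-only, and no cell held more than 3. The pooled level was 207 CPM (95% interval 149 to 281) in Slc17a6-only and 3.51 CPM (95% interval 0.0888 to 19.5) in GABA-only cells. Tgfbr3l had 21, 1 and 12 UMIs in the Slc17a6-only cells of libraries 4, 5 and 6 and 3 in all GABA-only cells. This gene moved with the hormone-high cells, where it stood at 418 CPM against 21.5 in the rest, and it was not among the called genes without them. Serpini1 (neuroserpin, a protease inhibitor of neurons), Mcl1 (a survival factor), Rmst (a long RNA of neural progenitors), Eea1 (early endosomes), Plcb4 (a phospholipase), Cdk14 (a kinase), Phpt1 (a phosphatase) and Sox2 (a factor of progenitors and glia) had log2 ratios between -1.97 and -1.09. Without the hormone-high cells Serpini1 and Rmst missed 2-fold in at least 1 library with the same sign, and Mcl1 and Eea1 fell under the minimum of 30 UMIs.

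**Figure D4:**
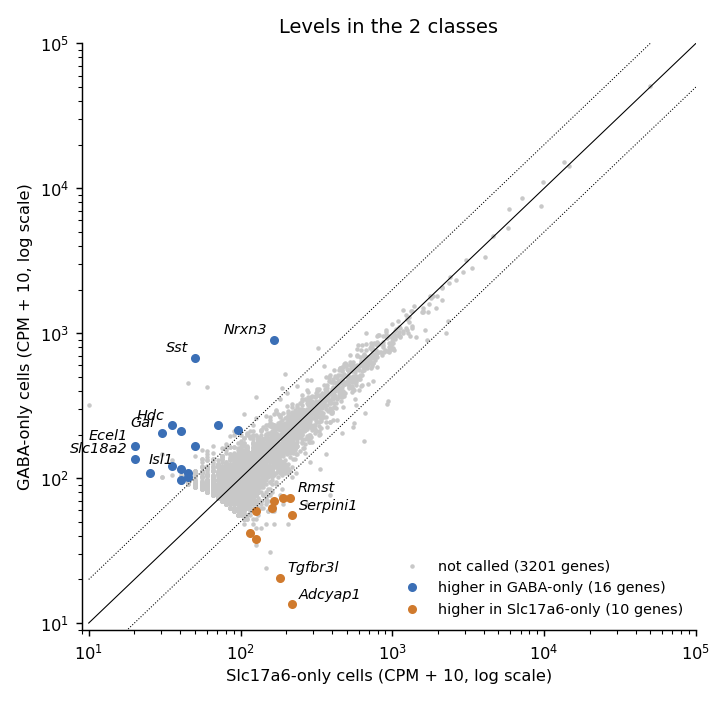
Level of each of 3227 genes in GABA-only cells (vertical) and Slc17a6-only cells (horizontal) of libraries 4 to 6 together, as CPM plus 10 on log axes; coloured points passed the 2-fold rule in all 3 libraries, and the dotted lines mark 2-fold. Sst, Gal, Hdc, Slc18a2 and Nrxn3 lie above the upper line and Adcyap1 lies farthest below the lower one among the called genes; grey points outside the lines failed in at least 1 library.

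The start regions of Sst, Cartpt and Adcyap1 are shown because all are peptide genes of these cells, and those of Sst and Cartpt hold the cAMP response element, the site known from the somatostatin promoter through which cyclic AMP drives transcription. Each run is the 250 bases before the RefSeq start site in GRCm38.p6, 5′ to 3′ on the gene's strand, with the letters TGACGTCA in capitals where they occur. The motif is its own reverse complement, so both strands are covered by 1 search. The windows lie at chr16:23890845-23891094 on the minus strand (Sst), chr13:99900684-99900933 on the minus strand (Cartpt) and chr17:93198767-93199016 on the plus strand (Adcyap1, 1 of 2 listed start sites).
Sst: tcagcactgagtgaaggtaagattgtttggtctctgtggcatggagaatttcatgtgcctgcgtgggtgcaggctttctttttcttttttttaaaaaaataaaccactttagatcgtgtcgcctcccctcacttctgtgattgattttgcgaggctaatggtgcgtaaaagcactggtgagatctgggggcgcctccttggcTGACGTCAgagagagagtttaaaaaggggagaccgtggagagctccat
Cartpt: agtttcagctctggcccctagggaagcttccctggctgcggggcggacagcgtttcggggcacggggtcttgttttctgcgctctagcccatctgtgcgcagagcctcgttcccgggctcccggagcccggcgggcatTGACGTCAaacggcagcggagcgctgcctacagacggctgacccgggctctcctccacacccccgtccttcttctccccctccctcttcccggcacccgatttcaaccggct
Adcyap1: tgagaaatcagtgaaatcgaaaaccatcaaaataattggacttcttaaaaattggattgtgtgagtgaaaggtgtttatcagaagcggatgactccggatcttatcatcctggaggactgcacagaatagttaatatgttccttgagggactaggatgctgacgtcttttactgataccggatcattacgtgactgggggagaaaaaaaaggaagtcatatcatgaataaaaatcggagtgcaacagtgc
The motif began 48 bases before the start in Sst and 112 before it in Cartpt, and the Adcyap1 windows did not hold it. Over the full RefSeq windows, which run to 50 bases after the start, it occurred in 2 of the 22 class-separating genes with a window (Sst and Slc18a2), in 2.03% of all 27025 genes and in 1.79% of all 32851 windows. A match is a description of the sequence and not a shown binding site.

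Several transcription factor genes lay mostly in 1 class. The 4 Dlx genes measured (Dlx1, Dlx2, Dlx5 and Dlx6), which set the fate of forebrain GABA neurons, had 42 UMIs in 36 GABA-only cells and 0 in Slc17a6-only cells. For Dlx1, with 20 UMIs in 16 cells, that is 4.63-fold higher against a limit of 3 UMIs over the class. Foxb1 went the other way, with 72.9, 239.9 and 105 CPM in Slc17a6-only cells and 0 UMIs in GABA-only cells, 12.5-fold against the same limit of 3 UMIs. Both ratios leave out the counting error of the higher class, so they are not lower bounds. All 20 Foxb1 cells carried Slc17a6, 9 of them carried Adcyap1 and 8 carried Cartpt, against 26 and 40 of the 481 cells without Foxb1. Nkx2-1 had 18 of its 20 UMIs in Slc17a6-only cells and Lhx1, a LIM homeobox gene, 11 of 13, while Otp, a homeobox gene of peptide neurons, had 27 of 33 in GABA-only cells. Sim1, a gene of the paraventricular nucleus, had 7 UMIs, all in Slc17a6-only cells. Nkx2-1, Lhx1, Otp and Sim1 had under 30 UMIs over both classes or did not reach 2-fold in all 3 libraries, so they are given as counts. Dlx1 and Foxb1, with 20 and 26 UMIs, were also under that minimum and were not among the genes tested. Lmo3, a LIM-only cofactor, stood at 59.8, 43.6 and 36.3 CPM in GABA-only and 109, 206 and 157 CPM in Slc17a6-only cells, groups that do not overlap, without 2-fold in every library.

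The remaining lists were counted between the classes in the same way. Of the synaptic vesicle genes 1 of 14 tested passed (Cplx1), of the transmitter receptors 0 of 13, of the channels 0 of 9, of the peptide-processing genes 0 of 10, and of the calcium-binding genes 0 of 8. With 0.496% and 0.31% of all genes called in the 2 directions, counts this small say nothing of the lists. Against all other cells of the libraries, 14 of 14 receptors, 14 of 14 vesicle genes, 9 of 9 channels and 6 of 8 calcium-binding genes were higher, while 1 of 10 peptide-processing genes was, beside the 34.7% of all genes. Gria2, a subunit of AMPA receptors, stood at 1233, 959 and 629 CPM in GABA-only and 850.1, 1508 and 1255 CPM in Slc17a6-only cells of libraries 4, 5 and 6. Gabbr1, a subunit of the GABA-B receptor, stood at 560.4, 654 and 484 CPM and 389, 617 and 349 CPM. The classes overlap between libraries in both genes.

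Some members of these lists lay apart between the classes without passing. Scn9a, a sodium channel that amplifies small depolarisations, stood at 74.7, 43.6 and 60.5 CPM in GABA-only cells and had 0 UMIs in Slc17a6-only cells, with 18 UMIs in all, under the minimum of 30. Cacna2d1, a calcium channel subunit, stood at 164, 58.1 and 157 CPM in GABA-only and 328, 359.9 and 384 CPM in Slc17a6-only cells. Vgf, a precursor of secreted peptides, stood at 232, 334 and 266 CPM and 134, 85.7 and 52.3 CPM. In all 3 genes every library of 1 class lay above every library of the other. Cacna2d1 and Vgf missed 2-fold in library 4, where the classes were closest. The share of all genes that lie apart in this way was not counted, so every such order between the classes is a description only. Bdnf, a neurotrophin, had 0, 0 and 36.3 CPM and 60.7, 154 and 52.3 CPM, with 21 UMIs.

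Some peptide-processing genes were higher in the hormone-high cells. Chgb, a granin of secretory granules, stood at 355, 275 and 1215 CPM in the 501 cells of libraries 4, 5 and 6. It stood at 2732 CPM in the hormone-high cells and 241 in the rest. Pam, which amidates peptides, stood at 484, 551 and 1412 CPM and at 1985 and 578 CPM in the same groups. With those cells left out Chgb stood at 204, 187 and 375 CPM and Pam at 418, 552 and 905 CPM in libraries 4, 5 and 6, so library 6 stayed highest at lower levels. Vgf was the 1 gene of the 10 higher than in other cells, at 44.8 CPM in hormone-high cells and 225 in the rest.

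Receptors through which other systems reach hypothalamic neurons were sparser, and only 7 of the 19 genes of the sleep and feeding list in the table reached 10 UMIs. Hrh3, the histamine receptor that restrains transmitter release, was found in 11% (95% interval 8.38 to 14) of cells against 0.187% of the reference cells. It was at 172, 204 and 206 CPM in GABA-only and 60.7, 103 and 87.2 CPM in Slc17a6-only cells, so every GABA-only library lay above every Slc17a6-only library, with the 2-fold rule missed in library 5. Nr3c1, the glucocorticoid receptor, had 46 UMIs, Hrh1 22, Insr 18 and Esr1 10. The 7 genes that reached 10 UMIs did not include the receptors of orexin, leptin, ghrelin or melanocortins, and at this depth low levels of those were not detectable.

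Among the neuropeptides, Avp encodes vasopressin, made by magnocellular neurons and by neurons of the suprachiasmatic nucleus. It had 314, 755 and 28.2 CPM in the 501 cells of libraries 4, 5 and 6, from 68, 96 and 4 UMIs in 9, 28 and 4 cells. Slc17a6-only cells had 461, 1183 and 0 CPM and GABA-only cells 224, 392 and 48.4 CPM, an order that turned in library 6 with its 4 UMIs. The share of cells with an Avp UMI was 8.18% (95% interval 5.94 to 10.9), against 3.17% in the reference cells, and 5.44% against 1.9% after thinning. Of the 41 cells 8 held at least 3 Avp UMIs. The 3 richest held 43, 36 and 15 of the 168 UMIs, so the class levels rest on few cells. With the reference cells' level subtracted in each library, Avp stood at 299 CPM over the 3 libraries together, against 346 CPM before, and which single cells carried free RNA was not tested.

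The rule reached few of the vasopressin cells. The 501 cells held 4.24% of the 3959 Avp UMIs of the libraries, and their level of 346 CPM was close to the 342 CPM of all other cells. Of 52 cells with at least 10 Avp UMIs, 5 met the rule. The other 47 had no transmitter UMI, and 42 of them showed at least 3 neuron genes at a median depth of 659 UMIs. Oxt, which encodes oxytocin, was alike: 31 of 1155 UMIs lay in the 501 cells, and 22 of those 31 in 1 cell of library 5.

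Opioid and tachykinin precursors followed. Penk, the precursor of the enkephalins, stood at 558, 47.2 and 49.4 CPM, so library 4 held 121 of the 134 UMIs, and 24 of its 30 cells were GABA-only. Penk was found in 3 of 536 reference cells, with a level of 70.7 CPM there. Pdyn, the dynorphin precursor, had 17, 1 and 4 UMIs in libraries 4, 5 and 6. Tac1, the precursor of substance P, varied by less than 2-fold between libraries, at 249, 204 and 360.2 CPM, in 30 GABA-only and 26 Slc17a6-only cells.

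Library 4 also stood apart in Adora2a. This gene, which encodes a receptor through which adenosine and caffeine act on sleep, had 19 UMIs in 9 cells, all GABA-only and all in library 4, and 8 of the 9 held Penk. Adora2a with Penk is known from striatal neurons of the indirect pathway. In libraries 5 and 6 Adora2a was at 0 UMIs among 186 and 118 cells. Bcl11b had 31, 6 and 9 UMIs and Meis2 20, 1 and 2 in the 3 libraries. Meis2 was also found in 61 of the 536 reference cells, and Bcl11b in 0.

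The feeding peptides of the arcuate nucleus lay in few cells. Agrp, the orexigenic agouti-related peptide, had 24 UMIs in 5 cells, 2 in library 4 and 3 in library 5. All 5 were GABA-only and 4 held Npy, which occurred in 13 of the 496 cells without Agrp. Npy had 157, 142 and 35.3 CPM in 8 GABA-only and 9 Slc17a6-only cells. Ghrh, the hormone that drives growth hormone release, had 10 UMIs in 4 cells, all GABA-only. Cartpt was wider, in 48 cells at 101, 236 and 141 CPM, 30 of them Slc17a6-only, with no cell above 3 UMIs.

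Nts (neurotensin) had 69.2, 149 and 49.4 CPM in 11 GABA-only and 12 Slc17a6-only cells, and 0 UMIs in the reference cells. Cck (cholecystokinin) had 23.1, 157 and 28.2 CPM, with 16 of 18 cells Slc17a6-only, but the 501 cells held 2.07% of the libraries' 1398 Cck UMIs. Gnrh1, which drives the gonadotropins, had 152 UMIs in 3 cells, of which 117 and 34 lay in 2 cells of library 5. The GABA-only level of 1701 CPM in library 5 came from the cell with 117 UMIs. Pnoc (nociceptin) had 17 UMIs in 17 cells and Trh (thyrotropin-releasing hormone) 11 UMIs, 10 of them in Slc17a6-only cells. Hcrt (orexin) had 2 UMIs, Pmch (melanin-concentrating hormone) 1 and Crh 3. Kiss1, Npvf and Galp from the list have no row under those names.

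**Figure D5:**
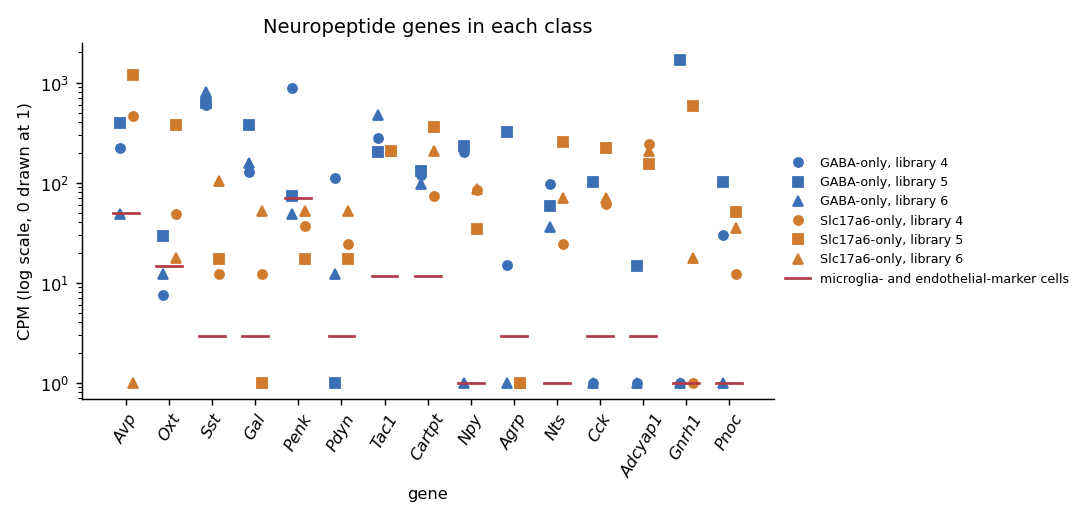
Level (CPM, log scale) of 15 neuropeptide genes in GABA-only (blue) and Slc17a6-only (orange) cells, with 1 symbol shape per library, and the pooled level in microglia- and endothelial-marker cells as a red line. Sst lies at 598 to 811 CPM in GABA-only cells of all 3 libraries, Adcyap1 at 154 to 243 CPM in Slc17a6-only cells, and Avp, Agrp and Gnrh1 differ between libraries.

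Against cells chosen by the same rule in the other 6 libraries, 35 of 15732 genes (0.222%) were at least 2-fold higher in each of libraries 4, 5 and 6 than in every other library, and 11 (0.0699%) at least 2-fold lower. The 10 largest gaps upward were those of Slc18a2, Peg10, Prlr, Foxb1, Dlk1, Irs4, Six3, Zdbf2, Nkx2-1 and Epcam. Slc18a2 stood at 87.6, 62.9 and 77.7 CPM in libraries 4, 5 and 6, against 0 to 6.42 CPM in the other 6. Dlk1, an imprinted gene for a membrane protein of endocrine and hypothalamic cells, stood at 318, 315 and 529.7 CPM in libraries 4, 5 and 6, against 0 to 80.9 CPM in the other 6. Prlr, the prolactin receptor, stood at 60, 86.5 and 98.9 CPM in libraries 4, 5 and 6, against 0 to 8.34 CPM in the other 6. These levels lie apart in every library of the comparison. Peg10 and Zdbf2 are also imprinted genes, at 55.4 to 91.8 and 169.5 to 179.9 CPM in libraries 4 to 6. Irs4, an insulin receptor substrate, stood at 87.6, 110.1 and 127 CPM in libraries 4, 5 and 6, against 0 to 20.2 CPM in the other 6. Hdc, Oxt, Cartpt, Ddc, Six6, Magel2 and Fezf1 from the lists passed too, Oxt with a single rich cell in library 5. With at least 3 neuron genes per cell 26 of the 35 passed again, and Cartpt, Ddc and Six6 did not. Ddc fell from 30.9 to 0 CPM over libraries 4 to 6 with the reference cells' level subtracted.

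Without the hormone-high cells in all libraries, 29 of the 35 passed again, and Epcam and Six6 did not. Epcam, an epithelial adhesion gene, then stood at 73.2, 16.2 and 96.2 CPM in libraries 4, 5 and 6. Six6, a homeobox gene that the pituitary also uses, fell in level from 78.3 to 43 CPM. Foxb1, Irs4, Six3, Nkx2-1, Magel2 and Fezf1 kept their place, so the check of position did not rest on those cells.

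Downward, the largest gaps were those of Ndnf, Adcy1, Sema7a, Car4, Net1, Maf, Frzb, Slc30a3, Lamp5 and Omg. Ndnf, a gene of superficial interneurons in the cortex, had 0 UMIs in libraries 4, 5 and 6, against 33.4 to 149.9 CPM in the others. Adcy1, a calcium-stimulated adenylyl cyclase, stood at 9.23, 7.87 and 0 CPM in libraries 4, 5 and 6, against 58.4 to 352 CPM in the other 6. Slc30a3, the zinc transporter of glutamate vesicles, had 0 UMIs, against 12.8 to 225 CPM.

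Activity and sleep-related genes are given per library without a sleep group. Fos, the immediate early gene used as a mark of recent activity, stood at 231 CPM (95% interval 171 to 304) in library 4, 94.4 CPM (95% interval 48.8 to 165) in library 5 and 742 CPM (95% interval 607 to 898) in library 6. In the reference cells of those libraries it stood at 423, 872 and 859 CPM. When the hormone-high cells were left out, the level was 199, 64.9 and 799 CPM, so library 6 stayed highest. In both classes it was highest too, at 179, 116 and 787 CPM in GABA-only and 304, 68.6 and 697 CPM in Slc17a6-only cells. Junb, which pairs with Fos in the AP-1 factor, stood at 374, 204 and 664 CPM, and at 246, 122 and 674 CPM without the hormone-high cells, over 1.5 times lower in libraries 4 and 5. With the reference cells' level subtracted, Fos fell from 344 to 0 CPM over the libraries together and Junb from 414 to 0 CPM. The library order of both genes is therefore a description only. Over the 12 immediate early genes, 0 of 10 tested were higher in the 501 than in other cells in all 3 libraries, and the median log2 ratio was -0.47.

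Of the clock genes, 12 of 14 reached 10 UMIs and 0 of 6 tested were higher in all 3 libraries. Dbp, a clock output gene, stood at 143, 86.5 and 120.1 CPM and Per1 at 55.4, 70.8 and 56.5 CPM, ranges in which the libraries lie within 2-fold of each other. Cry1 stood at 46.1, 23.6 and 7.06 CPM, Per3 at 92.3, 70.8 and 155 CPM and Rorb at 87.6, 62.9 and 134 CPM, which differ by over 2-fold between libraries, Cry1 on 14 UMIs in all. With the hormone-high cells left out, Per3 stood at 94.1, 64.9 and 86.6 CPM, within 2-fold and no longer highest in library 6, while Rorb stood at 62.7, 64.9 and 144 CPM and Cry1 at 47, 24.3 and 9.62 CPM, still over 2-fold apart. With the reference cells' level subtracted, Dbp fell from 122 to 21.2 CPM over the libraries together and Per1 from 59.7 to 17.4 CPM. Cry1 fell from 28.8 to 16.7 CPM, Per3 from 105 to 0 and Rorb from 94.7 to 87.0. The reference cells can also express these genes themselves. Of the 12 genes listed as responding to sleep deprivation, 0 of 7 tested were higher than in the other cells, with a median log2 ratio of -0.53. Mt1, a metallothionein that rises with stress hormones, stood at 1352, 1164 and 2034 CPM in the 501 and 2597, 4927 and 3381 CPM in the other cells. In GABA-only cells Mt1 was at 545, 1032 and 1707 CPM and in Slc17a6-only cells at 2672, 1319.7 and 2563 CPM. Library 4 thus held the widest gap between the classes. The same subtraction took Mt1 in the 501 cells from 1501 to 301 CPM. Apoe, a lipoprotein gene of astrocytes and microglia, was at 775, 1604 and 756 CPM in the 501 cells and 14504, 13414 and 7439.7 CPM in the reference cells.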

How the data were processed

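Single-cell RNA sequencing was performed by the authors on 9 libraries. The authors mapped reads to GRCm38 with Cell Ranger 2.2.0, per the submitters' processing notes, and deposited 1 table of filtered UMI counts, which are whole numbers without normalization, for 18634 genes in 29571 cells. The annotation release is not given in the sources used here. Columns carry a library code that the labels do not explain, so libraries were numbered in column order and no sample was assigned.

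From these counts, UMIs were summed per library and class and expressed as counts per 1000000 (CPM). Intervals are 95%, exact Poisson for CPM and exact Clopper-Pearson for a share, and cover counting error only. Totals were 3965301, 2121900 and 5488950 UMIs in libraries 4, 5 and 6, and 485517 in the 501 cells (285253 in GABA-only, 198046 in Slc17a6-only). Libraries 4 to 6 could not be shown to be replicates of a group, so no test over libraries was run, and values are given per library. Ratios used CPM plus a pseudocount of 10. A gene counted as different at 2-fold in the same direction in all 3 libraries (at least 30 UMIs over both classes; 50 in the cells for the comparison with other cells), or with each of libraries 4 to 6 beyond every other library for genes with at least 1 UMI. A gene called tested had at least the UMIs named. Genes of the rule and the 7 hormones were left out. For thinning, 500 UMIs per cell were drawn at random with a fixed seed, and shallower cells were left out.

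The members and gene lists were chosen with earlier results of these data known. Genes named are list genes with at least 10 UMIs in the cells (rarer ones only as counts), the 12 largest ratios each way between the classes and against other cells, and the 10 largest each way against other libraries. The hormone-high cells, Tgfbr3l and Slc17a7 were singled out after their values had been seen, as were the Dlx genes and Ncbp2, Smg1, Smarca1 and Sdhc, which complete the count of 16. Reference cells did not meet the rule, and had at least 3 genes of the microglia (225 cells) or endothelial list (311) and at most 1 of each other brain list. Scrublet in scanpy 1.11.5 called 0, 6 and 0 doublets, which is too few for the caller to have worked, so all cells were kept. Start regions came from RefSeq tables for GRCm38.p6. Scripts ran in Python 3.11.15 with matplotlib 3.10.9, pandas 2.3.3, scipy 1.17.1 and numpy 2.4.6, and the class comparison was tested on simulated data. Some genes that this rule names are not reported here. Alternatives are in the closing section.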

Additional observations from a re-analysis of the deposited data

How the results depend on the processing

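The rule decides how many cells there are. At least 2 transmitter UMIs left 170 cells, with 72.9% GABA-only and 25.9% Slc17a6-only, and a minimum of 1000 UMIs left 163. The other alternatives kept 440 to 494 cells, and the class shares stayed inside the main interval, as they did in the 288 cells left by thinning to 500 UMIs (64.6% and 34.7%). Leaving out 1 library gave 55.9% (without library 4) to 65.4% (without library 5) GABA-only, 34.0% to 43.8% Slc17a6-only and 0.261% to 0.635% with both.

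The counts of genes rest on the minimum of UMIs and on each library. With at least 100 UMIs 2 genes were higher in GABA-only and 0 in Slc17a6-only cells, and with at least 10 UMIs 69 and 49. The mean of the cells' own CPM gave 13 in GABA-only cells, 10 of them shared with the 16, and 18 in Slc17a6-only cells, 9 of them shared with the 10. Leaving out a library relaxes the rule by its construction, to 37 (without library 5) to 58 genes (without library 4 or 6) in GABA-only and 28 (without library 6) to 76 (without library 4) in Slc17a6-only cells. Against other libraries a pseudocount of 1 CPM gave 90 genes higher and 24 lower, and leaving out a library 43 (without library 6) to 65 (without library 5) and 15 (without library 6) to 29 (without library 4). Between the classes the larger count thus turned from GABA-only to Slc17a6-only under the mean of the cells' CPM and without library 4 (58 against 76), while none of the 26 called genes changed the sign of its pooled ratio under the alternatives in which it could be tested. Genes that were not called can turn with 1 library, as Gnrh1 rests on library 5.

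Removal of the hormone-high cells and of shared barcodes, and the runs without a library for gene counts, were added after seeing the data. Of 214 list genes, 24 fell by over 1.5 times in level and 6 rose when library 4 was left out. With the reference cells' level subtracted as free RNA, 59 of the 214 fell by over 1.5 times. Of the 159 outside the brain marker lists, on which the reference cells were chosen, 41 fell, immediate early, clock and stress genes among them. Reference cells can also express these genes themselves, so the subtraction can remove too much. For other genes of neurons it can remove too little, since reference cells held at most 1 gene of the neuron list. Depth limits all counts: most cells hold 1 UMI of the rule's genes, so both the classes and the absence of a gene in a cell are uncertain. The libraries carry no replicate numbers by which they could be paired with each other. The classes are paired within each library by construction, and their ratios per library are given without a test.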

Other observations

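How often the rule found a cell moved with the number of neuron genes seen in it. Among cells of libraries 4 to 6 with Gh under 30% and the other hormones under 5% of UMIs, the rule held for 25 of 2813 cells with 0 to 2 of the 24 neuron genes, 59 of 620 with 3 to 5, 128 of 394 with 6 to 8, 114 of 235 with 9 to 11 and 114 of 191 with 12 or more. The share in the last group was 59.7% (exact 95% interval 52.4 to 66.7), at a median depth of 1155 UMIs, against 797 in the group before it. The 47 cells with a transmitter UMI that the Gh limit left out showed a median of 2 neuron genes at a median depth of 1385 UMIs, and 16 of them showed at least 3. Of 25 cells with at least 10 Cck UMIs, 0 met the rule, at a median depth of 2884 UMIs, and 18 showed at least 3 neuron genes.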
